A study of Caenorhabditis elegans with 32 samples.

Results

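The genes described here are 53 of the 46904 genes counted in whole Caenorhabditis elegans worms. They carry only a sequence name, such as T25C12.3, and had more RNA in the wild-type (WT) groups labelled hypoxia than in those labelled normoxia in each of the generations P0, F1 and F3. Levels are CPM, each estimated count divided by its column total and scaled to 1000000. Of the 19400 genes with a sequence name, 4559 had a mean of at least 1 CPM in WT hypoxia in those 3 generations. In 64 of these the ratio of hypoxia to normoxia, with 0.5 CPM added to each mean, was at least 1.7 in all 3. T24B8.5 was set aside. Another 10 genes were removed because their RNA in hrde-1 normoxia was at least 3 times that in WT normoxia in P0, F1 and F3. The genes were thus chosen by their levels in the 12 WT libraries of P0, F1 and F3 and, through the removal, in 6 hrde-1 normoxia libraries of the same generations. Those WT values are given as a description with no test. The hrde-1 normoxia libraries also enter the tests within hrde-1, so each of those counts is also given with the 10 removed genes.

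A sequence name in C. elegans is made of the clone on which a gene model was found and a serial number. A gene receives a class name with letters and a number once it is placed in a family or has a described role, so a sequence name mostly marks a gene whose function is not described. The reference annotation gives a class name to a pair of the genes: F32A5.3 is ctsa-3.1, named for cathepsin A, and K11G9.3 is cest-28, named for carboxylesterases. No role is known from the sources used here for the other 51 genes. HRDE-1, the protein missing or altered in the mutant, is an Argonaute of the germ cell nucleus. It binds small RNAs that pass from parent to offspring and keeps their target genes silent over generations.

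Poly(A) RNA of 32 libraries was sequenced, 2 for each of 16 groups that combine WT or hrde-1 worms, a generation from P0 to F3, and normoxia or hypoxia as the label. Per the labels, hypoxia was 16 hours at 0.1% oxygen and 20 °C from the L4 larval stage, followed by return to air of about 20% oxygen. Whether worms of F1 to F3 met low oxygen themselves is not stated, so hypoxia there names a group. The allele of hrde-1, the age at harvest and the number of worms are not stated either. Because whole worms were used, fewer cells of a type and less RNA per cell cannot be told apart. Separate cultures for the 2 libraries of a group are not stated, and p-values then reflect the spread between these libraries alone, which may be technical.

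Totals per library were 9722580 to 16555982 estimated counts, and replicate libraries correlated with Pearson's r of 0.913 to 0.994 across 12840 genes, which are not independent replicates. RNA of the hrde-1 gene stood at 305 to 964 CPM in 14 WT libraries and at 349 to 590 CPM in 16 mutant libraries, so it gives no check of the strain. Of the genes reported in the literature as silenced by nuclear RNA interference, 7 of 7 on the list used here were called higher in the mutant in F2 by edgeR, in normoxia and in hypoxia. Each F2 WT normoxia column is a mean of 3 values that includes the WT normoxia columns of F1 and of F3 with its replicate number. Taking those away leaves a remainder of 12555703 and 11633862 estimated counts, in which 0 genes fell below 0 by more than 0.05. The remainder stands in below for F2 WT normoxia, which is an inference from the values. Across genes the remainder correlated more closely with F2 WT hypoxia, at 0.988 to 0.991, than with F1 WT normoxia at 0.933 to 0.951 or F3 WT normoxia at 0.928 to 0.952. The 2 remainders correlated with each other at 0.986, below each value with F2 WT hypoxia, so this measure does not separate the 2 groups. Whether the remainder carries the right label was not tested.

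Summed over the 53 genes, the level was low in WT normoxia of P0, F1 and F3 and higher in nearly every other library. The sum was 1139 and 877 CPM in the 2 P0 WT normoxia libraries, 619 and 893 in F1 and 1690 and 979 in F3. In WT hypoxia it was 3028 and 3100 CPM in P0, 2653 and 2780 in F1 and 2708 and 3195 in F3. The WT hypoxia and normoxia groups of these generations did not overlap, which the choice of genes favours. The F2 remainder, which the choice did not use, stood at 2542 and 2494 CPM, as high as F2 WT hypoxia at 2478 and 2367. In hrde-1 normoxia the sum was 2377 and 1068 CPM in P0, 2026 and 2019 in F1, 2768 and 1850 in F2, and 1616 and 2996 for F3. In hrde-1 hypoxia it was 2677 and 2890 CPM in P0, 2389 and 2456 in F1, 1869 and 2173 in F2 and 2612 and 2734 in F3.

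**Figure D1:**
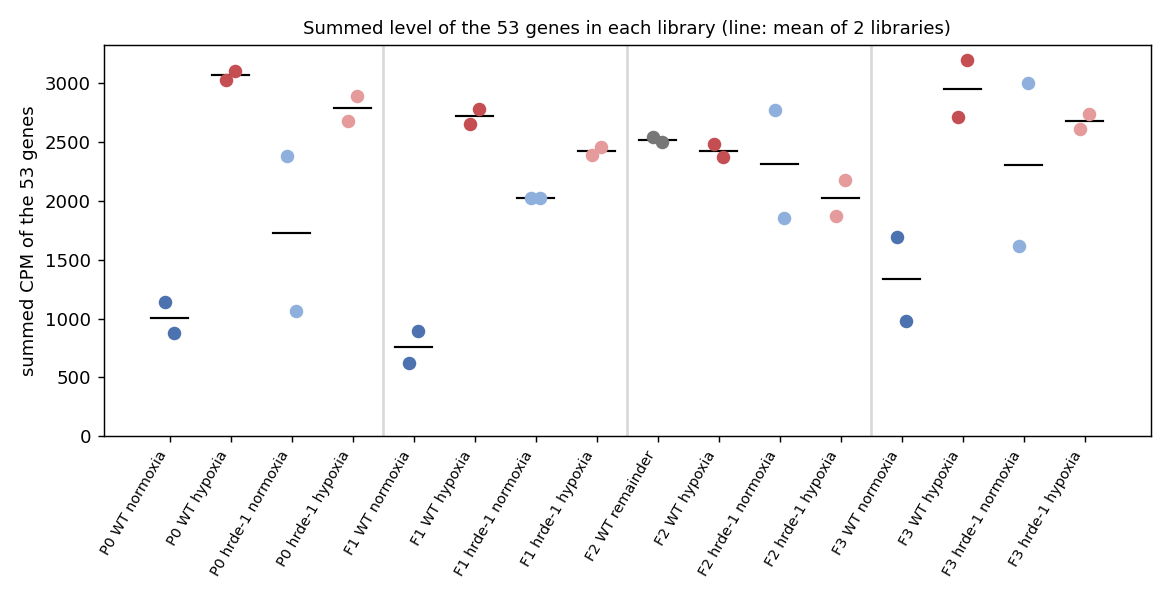
Summed level of the 53 genes (vertical axis, CPM) in each library, with the groups along the horizontal axis, points for libraries and lines for the mean of 2. The group means of WT normoxia in P0, F1 and F3 are the lowest, with libraries between 619 and 1690 CPM. The P0 and F3 hrde-1 normoxia libraries lie far apart from each other, the lower ones at 1068 and 1616 CPM, inside that range.

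One of the same 3 WT normoxia groups was lowest for 50 of the 53 genes. The choice of genes by low values in these groups favours this and the group orders below. They are a description, and the orders were not counted over other genes. Among the means of 15 groups, leaving out the F2 WT normoxia columns, the lowest was F1 WT normoxia for 29 genes, P0 WT normoxia for 18 and F3 WT normoxia for 3. For the other three it was F2 hrde-1 hypoxia, for 2, and F2 WT hypoxia, for 1. For 27 genes those groups took the lowest 3 places. The highest group was spread more widely: P0 WT hypoxia for 11 genes, P0 and F3 hrde-1 hypoxia for 8 each, and F1 and F3 WT hypoxia for 6 each. The ratio of WT hypoxia to normoxia had a median of 2.58 in P0, with a range of 1.702 to 23.5. In F1 the median was 3.65, from 1.74 to 15.1, and in F3 it was 2.39, from 1.75 to 5.4. Over all 4559 sequence-named genes at the level the medians were 0.813, 0.945 and 0.938. The 2 libraries of hypoxia were both above the 2 of normoxia for 52 genes in P0, against 26.7% of the sequence-named genes at the level. That held for all 53 genes in F1 and F3, against 27.1% and 27.6%, and the rule fixes most of these counts. Of 6286 genes with a class name at the level, 83 passed the same fold threshold, and 72 were left after the same removal of genes high in the mutant.

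**Figure D2:**
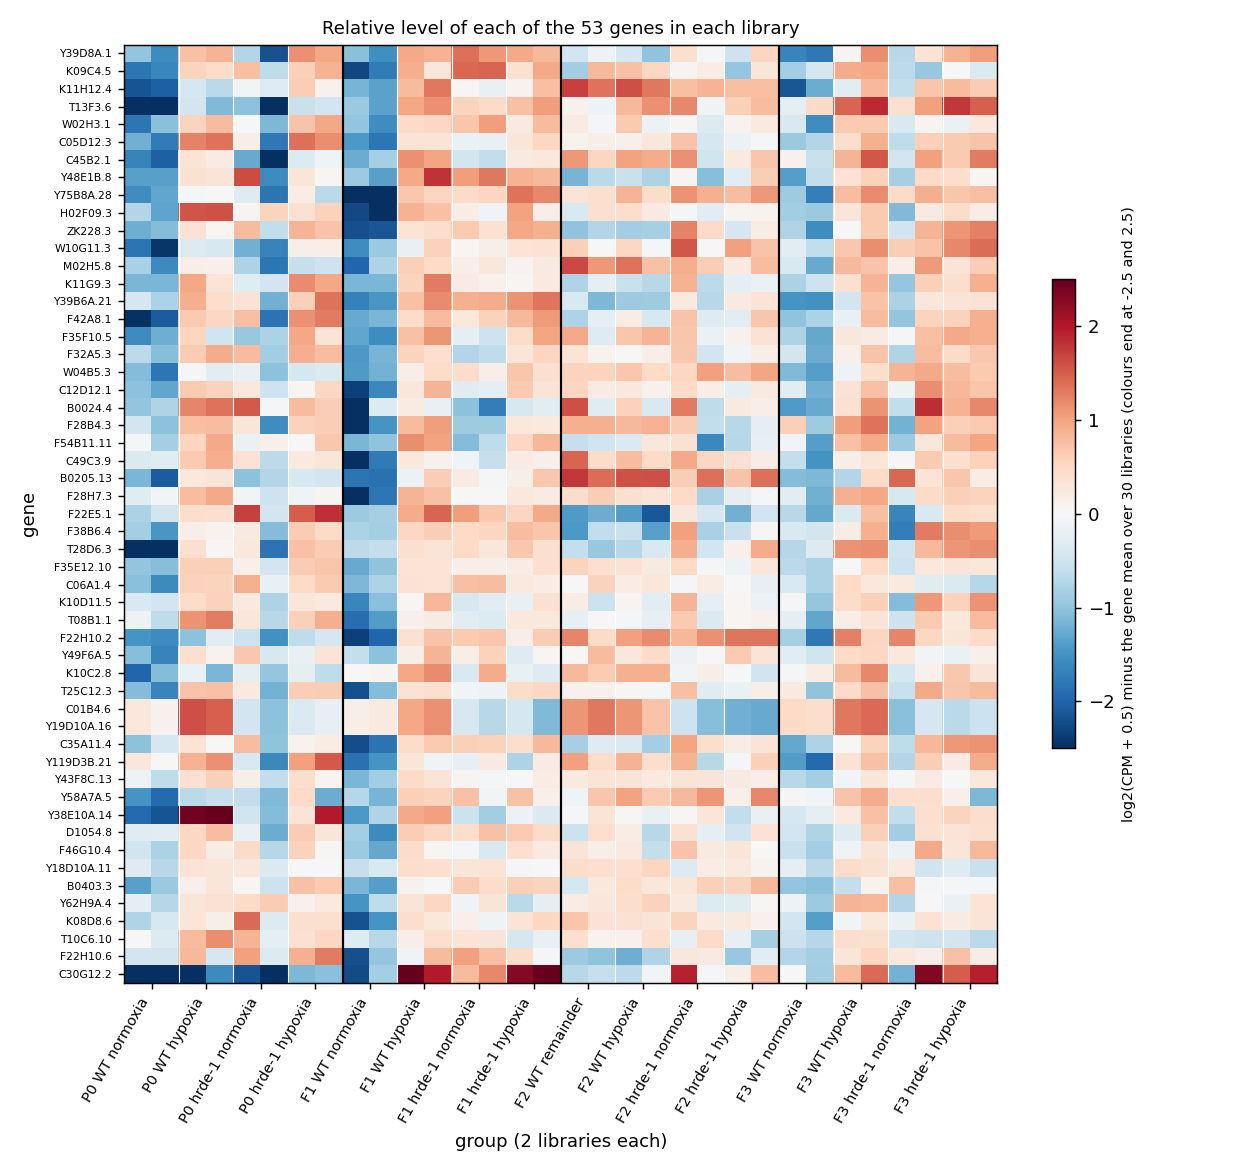
Level of each of the 53 genes (rows) in each library (columns, 2 per group), as log2 of CPM plus 0.5 minus the mean of the gene over 30 libraries, with F2 WT normoxia shown as the remainder. Blue is below and red above the gene's mean, and the columns of WT normoxia in P0, F1 and F3 are blue for nearly every gene.

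The genes with the largest rise in its weakest generation were led by Y39D8A.1, on chromosome V at 418732 to 421840 in the WBcel235 annotation. It stood at 1.3 and 0.701 CPM in P0 WT normoxia and at 5.4 and 5.92 in hypoxia. In F1 WT it went from 1.24 and 0.734 CPM to 6.39 and 6.0, and in F3 WT from 0.636 and 0.538 to 3.26 and 7.48. The lowest library of WT hypoxia, at 3.26 CPM, was above the highest of normoxia, at 1.3, and the ratios were 4.10, 4.5 and 5.4. K09C4.5 (chromosome X, 3282631 to 3285721) had ratios of 4.68 in P0, 6.11 in F1 and 2.98 in F3, from at most 2.96 CPM in normoxia to between 5.23 and 8.68 in hypoxia. K11H12.4 (chromosome IV, 674035 to 675883) had ratios of 2.93, 5.0 and 3.94.

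T13F3.6 (chromosome V, 16270300 to 16271221) was nearly silent in P0 WT normoxia, at 0.0767 and 0.234 CPM. It reached 8.34 and 5.20 CPM in P0 WT hypoxia, a ratio of 11.1. In later generations its normoxia level was itself higher, at 5.92 and 4.32 CPM in F1 and 9.83 and 16.47 in F3, with hypoxia at 23.2 and 26.4 and at 33.2 and 44.2. W02H3.1, C45B2.1 and H02F09.3 lie on the X chromosome, and their smallest ratios over the 3 generations were 2.85, 2.71 and 2.61. H02F09.3 had its largest ratio in F1, 9.60, where normoxia stood at 0.286 and 0.0815 CPM. C05D12.3 (chromosome II, 11425266 to 11432762) stood at 30.4 and 20.7 CPM in P0 WT normoxia and at 167 and 181 in hypoxia, a ratio of 6.70.

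Y75B8A.28 (chromosome III, 12319089 to 12323867) had the highest ratio of all in F1, 15.1. Its 2 F1 libraries of WT normoxia stood at 0.477 and 0.326 CPM and those of hypoxia at 13.8 and 12.4. ZK228.3 (chromosome V, 18458241 to 18461250) had ratios of 2.58 in P0, 5.91 in F1 and 2.74 in F3. Y48E1B.8 and W10G11.3, both on chromosome II, were scarce, at no more than 0.471 and 2.12 CPM in WT normoxia of these generations. Their smallest ratios were 2.65 and 2.58. The single highest ratio belonged to Y38E10A.14 (chromosome II, 12623110 to 12624533), which rose from 3.91 and 3.27 CPM in P0 WT normoxia to 89.8 and 101 in hypoxia. Its P0 ratio of 23.5 stood beside only 4.11 in F1 and 1.77 in F3.

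The 6 genes with the highest mean CPM in WT hypoxia included 3 on the X chromosome. T25C12.3 (chromosome X, 11491087 to 11499999) had 205 and 139 CPM in P0 WT normoxia and 716 and 725 in hypoxia. In F1 it had 95.0 and 205 CPM in normoxia and 559 and 580 in hypoxia, and in F3 508 and 217 against 611 and 730. The F3 libraries of normoxia thus differed from each other by more than one of them differed from hypoxia. F28B4.3, also on the X chromosome, had the same spread in F3, with 278 and 99.0 CPM in normoxia and 379 and 473 in hypoxia. C06A1.4, annotated as a pseudogene on chromosome II, had ratios of 3.61, 2.42 and 1.94. Y18D10A.11 had narrow ratios of 1.76, 1.86 and 1.80, and C12D12.1 had 3.44, 5.76 and 2.32. Per kilobase of exon, the mean level in WT hypoxia was 99.9 CPM for T25C12.3, 53.9 for F28B4.3 and 58.8 for C12D12.1. It was 103 CPM per kilobase for C06A1.4 and 206 for Y18D10A.11. Y119D3B.21 (chromosome III, 1215000 to 1215200) is the shortest of the 53, with 201 bases of exon, and reached 727 CPM per kilobase.

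Near the fold threshold, C30G12.2 was just inside with a smallest ratio of 1.702, followed by F22H10.6 at 1.73 and T10C6.10 and K08D8.6 at 1.74. The smallest ratio of C30G12.2 was that of P0, and its F1 ratio was 14.2. Just outside were F58G6.9 at 1.696, F58G6.7 at 1.667, Y45G12C.1 at 1.666 and ZK512.7 at 1.654. The smallest ratios thus ran across the threshold without a gap.

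The remaining 30 genes fell within the ranges above. With their chromosomes they are M02H5.8, K11G9.3, Y39B6A.21, F35F10.5, B0024.4, F28H7.3, F35E12.10, T08B1.1, C01B4.6, Y19D10A.16, C35A11.4, Y43F8C.13, Y58A7A.5 and D1054.8 on V. F54B11.11, F38B6.4, F22H10.2, K10C2.8, F46G10.4, B0403.3 and Y62H9A.4 are on X, and F42A8.1, F32A5.3, F22E5.1 and Y49F6A.5 are on II. W04B5.3 and T28D6.3 are on III, C49C3.9 and K10D11.5 on IV, and B0205.13 on I.

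F2 was the generation that did not take part in the choice, and there the rise was not seen. The ratio of F2 WT hypoxia to the remainder had a median of 0.985 over the 53 genes, from 0.590 to 1.98. Over sequence-named genes at the level the median was 0.951. The ratio was above 1 for 25 of the 53. Only T13F3.6 reached 1.7, as did 0.241% of sequence-named genes at the level. It stood at 21 and 26.4 CPM in hypoxia and 12.7 and 10.7 in the remainder. T25C12.3 stood at 451 and 422 CPM in hypoxia and at 469 and 471 in the remainder. Y75B8A.28 stood at 15.5 and 11.9 CPM in hypoxia and at 10.8 and 11.3 in the remainder. For 6 genes both hypoxia libraries lay above both remainders and for 6 both lay below, against 6.87% and 24.2% of sequence-named genes at the level.

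In edgeR's quasi-likelihood test of F2 WT hypoxia against the remainder, 0 of 53 genes passed an adjusted p of 0.05 in either direction, where 0.0% of 15545 genes did. At an unadjusted p under 0.05 there was 1 of the 53, and 86 and 232 genes in all were higher and lower. DESeq2 called 0 of the 53 and 1 gene in all. In edgeR, which scales libraries by TMM, the log2 fold change was above 0 for 33 of the 53, against 45.6% of all genes tested. The median log2 fold change was 0.05, against -0.02 over all genes tested, with a median SE of 0.47. Without replicate 1 of F2 WT hypoxia the median over the 53 was -0.02. The upper end of the 95% interval was below a 1.7-fold rise for 15 of the 53 genes, so for the other 38 a rise of the size used in the rule is inside the interval. Against the F2 WT normoxia columns as deposited, which contain the low F1 and F3 libraries, the median ratio was 1.49 and 7 of the 53 genes were called higher, beside 210 higher and 1029 lower of 15537 genes.

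**Figure D3:**
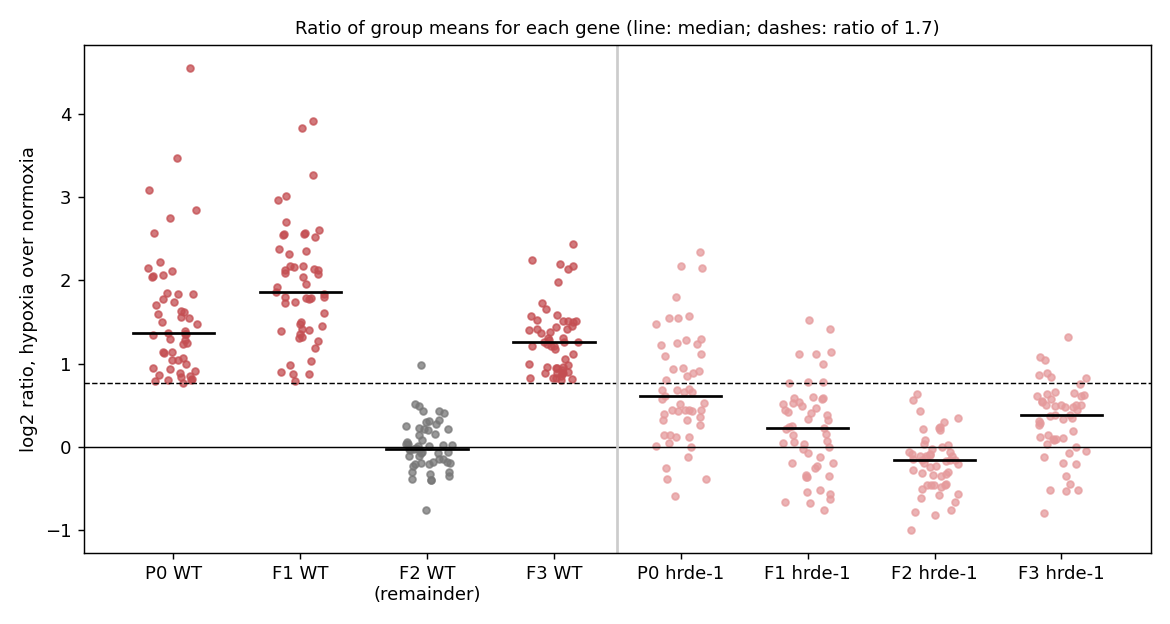
Ratio of hypoxia to normoxia for each of the 53 genes (points, vertical axis log2 ratio of group means with 0.5 CPM added), by strain and generation, with a line at the median and dashes at a ratio of 1.7. WT of P0, F1 and F3 lies above the dashes because the rule requires it, and F2 WT against the remainder is centred near 0. The hrde-1 medians lie below those of these 3 WT groups, at 1.53, 1.17, 0.897 and 1.3 as ratios in P0, F1, F2 and F3. Over sequence-named genes at the level the hrde-1 medians, not drawn, were 0.838, 0.974, 0.939 and 0.875.

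Over the 53 genes both WT groups of F2 differed from those of the other generations, in opposite directions. The genes were chosen as low in WT normoxia and high in WT hypoxia of P0, F1 and F3. The choice thus favours both directions for any group it did not use, and these values are a description. The remainder stood above WT normoxia of P0, F1 and F3 with median ratios of 2.58, 2.48 and 1.81 over the 53 genes. Over sequence-named genes at the level these medians were 0.744, 0.902 and 0.950. F2 WT hypoxia stood below WT hypoxia of P0, F1 and F3, with median ratios of 0.737, 0.902 and 0.775, against 0.867, 0.978 and 0.964. The genes were not alike in this. C30G12.2 in F2 WT hypoxia stood at 0.146 of its F1 WT hypoxia level, and in the remainder at 1.68 times its F1 WT normoxia level. F22E5.1 stood at 0.131 and 0.728 in the same order, so that both of its ratios were below 1. These values of both genes were chosen after they were seen.

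Marker lists of other tissues also differed between the WT normoxia groups, some higher and some lower in the remainder. The 6 vitellogenin genes, which encode yolk proteins made in the adult intestine, summed to 58499 to 66222 CPM in P0 WT normoxia, 73206 to 97336 in F1, 89925 to 109643 in F3 and 138160 to 138745 in the remainder. In WT hypoxia they summed to 111906 to 116368 CPM in P0, 111661 to 119262 in F1, 147078 to 153106 in F2 and 140432 to 147559 in F3. The 24 oocyte and eggshell genes summed to 9038 to 13154 CPM in P0 WT normoxia, 15161 to 17314 in F1, 15790 to 17833 in F3 and 20900.0 to 23311 in the remainder. In WT hypoxia they ran from 20740 to 26670 CPM over the 4 generations. The 22 meiosis and germline genes summed to 1629 to 1843 CPM in P0 WT normoxia, 2099.9 to 2326 in F1, 2127 to 2155 in F3 and 2597 to 2781 in the remainder. Among the WT normoxia groups these 3 lists were thus highest in the remainder.

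Among the same WT normoxia groups, other lists were lowest in the remainder. The 28 cuticle and molting genes summed to 3159 to 4512 CPM in P0 WT normoxia, 1035 to 1505 in F1, 852 to 1773 in F3 and 226 to 389 in the remainder. The 21 genes of the HIF-1 pathway and its targets summed to 1296 to 1531 CPM in P0 WT normoxia, 1072 to 1266 in F1, 969 to 1289.99 in F3 and 527 to 647 in the remainder. In WT hypoxia they summed to 881 to 920 CPM in P0 and 673 to 681 in F1. They were at 578 to 593 CPM in F2 and 682 to 757 in F3. HIF-1 is the transcription factor that responds to low oxygen. This list was nonetheless lower in WT hypoxia than in WT normoxia of P0, F1 and F3. The 21 neuronal genes summed to 1054 to 1061 CPM in P0 WT normoxia, 615 to 750.1 in F1, 520 to 751 in F3 and 397 to 454 in the remainder. The 17 intestine genes other than vitellogenins summed to 4917 to 5548 CPM in P0 WT normoxia, 4931 to 6653 in F1, 5657 to 7065 in F3 and 4407 to 5219 in the remainder, which overlaps P0 and F1. In WT hypoxia the cuticle and molting genes summed to 750 to 996 CPM in P0 and 1422 to 1575 in F1. They summed to 179 to 189 CPM in F2 and 291 to 406 in F3. The neuronal genes ran from 360 to 479 CPM and the intestine genes from 4380 to 6147 over WT hypoxia of all generations. The early embryonic, sperm, muscle and heat shock lists in the remainder lay within the range of the 3 WT normoxia groups. No gene of the 7 lists given with values was at 0 in any of these groups. None of the 53 genes is on the lists, and the part of these markers in the result was not tested.

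In hrde-1 worms the hypoxia and normoxia groups of P0, F1 and F3 lay closer together than in WT, which the choice of genes by their WT ratios favours. In F2, which the choice did not use, the median ratio was 0.897 in hrde-1 and 0.985 in WT against the remainder. The ratio of hypoxia to normoxia reached 1.7 for 21, 9, 0 and 7 of the 53 genes from P0 to F3, against 2.26%, 13.8%, 0.526% and 0.943% of sequence-named genes at the level. Both hypoxia libraries lay above both of normoxia for 27, 26, 4 and 17 genes in that order, against 7.28%, 31.7%, 9.17% and 5.07%. They lay below for 1, 10, 11 and 4 genes, against 46.3%, 36%, 19.8% and 34.5%. The difference between the strains in their response was not tested for P0, F1 and F3, because the WT response there chose the genes.

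P0 was the generation of hrde-1 in which some of the genes passed the test. In edgeR's quasi-likelihood test on 30 libraries, 10 of the 53 were higher in hypoxia and 0 lower at an adjusted p under 0.05, where 1.38% of 15536 genes tested were higher and 4.46% lower. The log2 fold change was above 0 for 50 of the 53, with a median of 0.98, against -0.02 over all genes tested. Of the 72 genes with a class name left by the same thresholds and removal, 15 were higher. The removal of genes high in hrde-1 normoxia touches this count, and with the 10 removed genes added it was 12 of 63.

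Y38E10A.14 stood at 11.45 and 7.47 CPM in P0 hrde-1 normoxia and at 20.7 and 66.5 in hypoxia. The groups did not overlap, but the 2 hypoxia libraries were far apart. Its log2 fold change was 2.52 ± 0.42 (SE), at an adjusted p of 0.00224 in edgeR. Y39D8A.1 had 1.65 and 0.291 CPM in the normoxia libraries and 7.36 and 6.47 in those of hypoxia, well above. The log2 fold change was 3.08 ± 0.59, at an adjusted p of 0.00584 in edgeR. Y119D3B.21 had 73.5 and 31 CPM in the normoxia libraries and 196 and 278 in those of hypoxia, again with no overlap. It rose by a log2 fold change of 2.49 ± 0.50, at an adjusted p of 0.00753 in edgeR. This gene was lower in P0 hrde-1 normoxia than in P0 WT normoxia, which stood at 116 and 97.1 CPM.

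C05D12.3 stood at 78.5 and 20.2 CPM in P0 hrde-1 normoxia and at 186 and 159 in hypoxia. Replicate 2 of hrde-1 normoxia thus lay at the level of WT normoxia, at 30.4 and 20.7 CPM, and replicate 1 well above it. Its log2 fold change was 2.10 ± 0.44, with an adjusted p of 0.00957 in edgeR. F35E12.10 had 43.5 and 28.4 CPM in the normoxia libraries and 62.1 and 64.6 in those of hypoxia. The rise was 1.13 ± 0.24 on the log2 scale, at an adjusted p of 0.0100 in edgeR. F35F10.5 was low, at 0.392 and 0.485 CPM in normoxia and 2.82 and 1.68 in hypoxia. The log2 fold change was 2.65 ± 0.60, with an adjusted p of 0.0145 in edgeR. W10G11.3, B0403.3, C45B2.1 and W02H3.1 were also called, with log2 fold changes of 2.43, 1.27, 1.96 and 1.76 and adjusted p of 0.0160, 0.0232, 0.0353 and 0.0432 in edgeR. These 4 were chosen for naming after their values were seen.

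**Figure D4:**
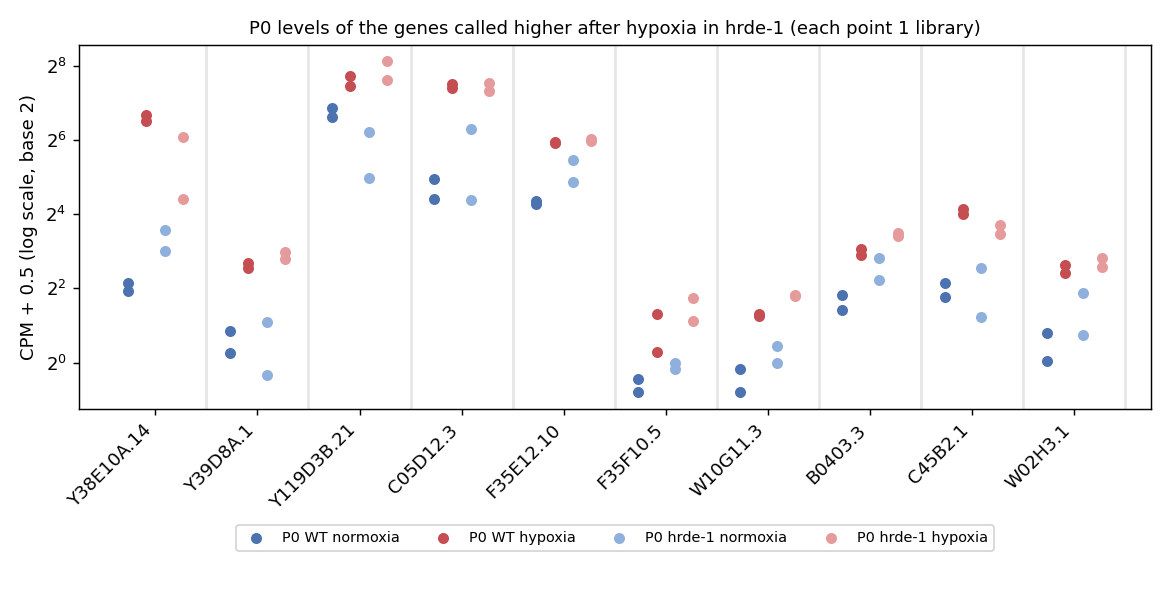
Level of the 10 called genes in the 8 P0 libraries (vertical axis, CPM plus 0.5 on a log scale of base 2), coloured by strain and label, each point 1 library. In each gene both hrde-1 hypoxia points lie above both hrde-1 normoxia points, and for C05D12.3 the hrde-1 normoxia points are spread from 20.2 to 78.5 CPM.

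The count in P0 rested on which of the 2 hrde-1 normoxia libraries was kept. Replicate 1 was higher than replicate 2 for 48 of the 53 genes, and the median log2 ratio of replicate 2 to 1 was -1.05, against 0.13 for sequence-named genes at the level. Without replicate 1 of normoxia 38 of the 53 genes were called higher, beside 1357 higher and 1798 lower of 16154 genes. Without replicate 2 only Y38E10A.14 was, 1 of 53, beside 45 higher and 79 lower of 16092 genes. Without replicate 1 of hypoxia 2 were called, Y38E10A.14 and Y119D3B.21, beside 25 higher and 24 lower in all. Without replicate 2 of hypoxia 2 were called, Y39D8A.1 and F35F10.5, beside 40 and 61. With the P0 hrde-1 groups fitted alone edgeR called 0 of the 53 and 0 of 12995 genes tested, while DESeq2 on 30 libraries called 16 of the 53, beside 416 higher and 1015 lower of 14632 genes. Replicate 1 of normoxia also held more vitellogenin RNA, 88470 against 77735 CPM, more oocyte and eggshell RNA, 26374 against 16919 CPM, and less cuticle and molting RNA, 1048 against 2189 CPM over 28 genes. Neuronal RNA was 610 against 926 CPM. The part of these differences in the result was not tested.

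Other libraries showed the same kind of shift within a group. In F3 hrde-1 normoxia replicate 2 was higher for 44 of the 53 genes, with a median log2 ratio of replicate 2 to 1 of 1.04. In F2 hrde-1 normoxia replicate 1 was higher for 39 genes, with -0.54. In F3 WT hypoxia replicate 2 was higher for 46 genes, with 0.37, and in F3 WT normoxia replicate 1 was higher for 41, with -0.28. In F3 hrde-1 normoxia replicate 2, with more RNA of the 53 genes, held less vitellogenin RNA, 119709 against 161164 CPM, and more cuticle and molting RNA, 3064 against 201 CPM. In F3 WT normoxia replicate 1, again the one with more RNA of the 53 genes, held more vitellogenin RNA, 109643 against 89925 CPM, and less cuticle and molting RNA, 852 against 1773 CPM. The library with more RNA of the 53 genes thus had more vitellogenin and less cuticle RNA in F3 WT normoxia, as in P0 hrde-1 normoxia, and the reverse in F3 hrde-1 normoxia. In F2 hrde-1 normoxia the higher library held 152059 against 148778 CPM of vitellogenin RNA and 1159 against 568 CPM of cuticle and molting RNA. In F3 WT hypoxia it held 140432 against 147559 CPM and 291 against 406 CPM. In the library with more RNA of the 53 genes, the intestine list summed to 7065 against 5657 CPM in F3 WT normoxia. It was at 6132 against 5523 CPM in F3 WT hypoxia. In hrde-1 normoxia it was at 5609 against 3677 CPM in F2, 7054 against 3326 in F3 and 4142 against 4144 in P0. Muscle RNA in hrde-1 normoxia was 18129.5 against 10548 CPM in F2, 22063 against 12495 in F3 and 8661 against 11230 in P0. The part of these markers was not tested.

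Among the lists of other genes, the same P0 hrde-1 comparison called 3 of 6 vitellogenins and 1 of 22 meiosis and germline genes higher. It called lower 9 of 28 cuticle and molting genes, 2 of 21 neuronal genes, 2 of 21 genes of the HIF-1 pathway and its targets, 1 of 19 muscle genes and 1 of 17 early embryonic genes. Of 17 heat shock genes 1 was higher and 2 were lower. Among 24 oocyte and eggshell, 20 sperm, 17 intestine and 7 reported nuclear RNA interference genes edgeR called 0, with 7, 2, 5 and 0 at an unadjusted p under 0.05. DESeq2 was not counted over the lists.

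In the later generations of hrde-1 none of the 53 genes passed the test. In F1 edgeR's quasi-likelihood test called 0 of the 53, where 7.67% of genes tested were higher and 0.676% lower. At an unadjusted p under 0.05 5 of the 53 were higher, beside 2723 of 15536 genes, DESeq2 called 0, and the median log2 fold change was 0.24 against 0.05 over all genes. With the F1 hrde-1 groups fitted alone 17 of 52 were higher and 5 lower, beside 2946 higher and 2074 lower of 12425 genes. In F2 edgeR called 0 of the 53 and 0.0% of all genes. At an unadjusted p under 0.05 0 were higher and 1 was lower, beside 325 and 458 genes in all, and DESeq2 called 0. The median log2 fold change was -0.08 against -0.01 over all genes, and it was 0.27 without replicate 1 of normoxia and 0.04 without replicate 1 of hypoxia. In F3 edgeR called 0 of the 53, where 0.00644% of genes were higher and as many lower. At an unadjusted p under 0.05 10 were higher, beside 479 genes in all, DESeq2 called 0 of the 52 it tested, and the median was 0.62 against -0.01 over all genes. Without replicate 2 of F3 hrde-1 normoxia, the library with the higher summed level, 13 of the 53 were called higher, beside 1608 higher and 997 lower of 16140 genes. With the 10 removed genes added, edgeR called 0 of 63 in F1, in F2 and in F3.

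Pooled over generations in an additive model of the 16 hrde-1 libraries, edgeR called 0 of the 53 and 0.0% of 14458 genes. The log2 fold change was above 0 for 49 of the 53, with a median of 0.39 against -0.04 over all genes tested. At an unadjusted p under 0.05 15 were higher, beside 1044 genes in all. DESeq2 called 0 of the 53, and with the removed genes added edgeR called 0 of 63. When the contrasts of the 4 generations were averaged in the fit of 30 libraries, 7 of the 53 were called higher, beside 592 higher and 246 lower of 15536 genes.

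The hypoxia effect in hrde-1 was also compared between generations, as the effect in P0 minus the mean effect in F1 to F3. In edgeR's test 3 of the 53 genes had a larger effect in P0 and 0 a smaller one, where 0.277% of genes tested had a larger and 1.43% a smaller effect. With the removed genes added it was 3 of 63. The median difference was 0.84 on the log2 scale, against -0.09 over all genes tested. Y39D8A.1 differed by 2.74 ± 0.65 (SE), at an adjusted p of 0.0380 in edgeR. In F1 hrde-1 it stood at 8.79 and 7.06 CPM in normoxia and 6.35 and 5.79 in hypoxia, and in F2 at 4.26 and 2.98 against 1.98 and 4.68. In F3 hrde-1 it stood at 1.71 and 4.04 CPM in normoxia and 6.01 and 6.92 in hypoxia.

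Y38E10A.14 differed by 2.28 ± 0.47, with an adjusted p of 0.0189 in edgeR. It stood at 11.2 and 8.75 CPM in F1 hrde-1 normoxia and 14.7 and 12.7 in hypoxia. In F2 it stood at 16.9 and 20.5 CPM against 10.5 and 14.4, and in F3 at 10.5 and 22.2 against 24.4 and 22.5. In F2 both hypoxia libraries lay below both of normoxia. In F3 both lay above, as in P0, with a ratio of 1.42 between the group means. Y119D3B.21 differed by 2.28 ± 0.56, with an adjusted p of 0.0429 in edgeR. It stood at 83.2 and 113 CPM in F1 hrde-1 normoxia and 56.1 and 111 in hypoxia, at 176 and 58.7 against 94.3 and 144 in F2, and at 57.9 and 148 against 111 and 182 in F3. Its groups overlapped in each of these generations. Without replicate 1 of P0 hrde-1 normoxia 30 of the 53 differed, beside 1331 genes with a larger and 1434 with a smaller effect of 16154. Without replicate 2 of P0 hrde-1 normoxia or of P0 hrde-1 hypoxia 0 of the 53 did. Leaving out other hrde-1 libraries gave between 1 and 8. With the hrde-1 groups fitted alone 0 of the 53 differed, beside 4 larger and 11 smaller in all.

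Between the strains, the 53 genes stood higher by CPM in hrde-1 than in WT in normoxia of P0, F1 and F3. In hypoxia their CPM was at about the same level, while that of sequence-named genes at the level was lower in hrde-1. The ratio of hrde-1 to WT in normoxia had a median of 1.79 in P0, 2.73 in F1 and 1.83 in F3, against 0.840, 0.835 and 0.869 over sequence-named genes at the level. In hypoxia the medians were 0.979, 0.916 and 1.04, against 0.876, 0.909 and 0.827. The WT libraries of these ratios chose the genes, so these values are a description. In F2, which was not used, the median was 1.02 in normoxia against the remainder and 0.935 in hypoxia. Over sequence-named genes at the level these F2 medians were 0.931 and 0.917.

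In F2 hypoxia edgeR called 0 of the 53 higher and 2 lower in hrde-1 than in WT, where 4.99% of genes tested were higher and 1.44% lower. The 2 are C01B4.6 (chromosome V, 2501051 to 2502426) and Y19D10A.16 (chromosome V, 2392772 to 2394147), whose estimated counts were identical in all columns, so the reads of one copy cannot be told from those of the other and they are 1 profile. The annotation gives the ID of Y19D10A.16 the symbol C01B4.6. C01B4.6 stood at 16.9 and 12.8 CPM in F2 WT hypoxia and at 3.02 and 2.91 in F2 hrde-1 hypoxia. The log2 fold change was -2.18 ± 0.30 (SE), at an adjusted p of 0.000106 in edgeR. In F2 normoxia it stood at 17 and 19.7 CPM in the remainder and at 5.14 and 3.39 in hrde-1, and the log2 difference was -1.99 ± 0.29, at an adjusted p of 0.000128 in edgeR.

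C01B4.6 was also lower in the mutant in the other generations, as a description. The ratio of hrde-1 to WT was 0.530 in P0, 0.604 in F1 and 0.446 in F3 normoxia, and 0.281, 0.288 and 0.256 in hypoxia. With the F2 hypoxia groups of both strains fitted alone, 5 of the 50 tested were higher in hrde-1 and 7 lower, beside 1999 higher and 1258 lower of 12208 genes.

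In F2 normoxia against the remainder edgeR called 1 of the 53 higher in hrde-1 and the 2 above lower, where 2.9% of genes tested were higher and 1.61% lower. The gene that was higher was ZK228.3, at 2.39 and 3.01 CPM in the remainder and 13.2 and 7.61 in hrde-1. Its log2 fold change was 2.06 ± 0.47, with an adjusted p of 0.0144 in edgeR. Its call was lost when either remainder or replicate 1 of hrde-1 normoxia was left out. ZK228.3 starts 4546 bases from ZK228.4, 1 of the 10 genes removed for their high level in the mutant. Without replicate 2 of F2 hrde-1 normoxia 6 of the 53 were called, 4 of them higher, beside 947 higher and 460 lower of 16144 genes. With the deposited columns 7 were higher and 2 lower, beside 432 and 509 of 15537 genes. With these groups fitted alone edgeR called 0 of the 51 tested, beside 79 and 22 genes in all.

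The hypoxia effect in F2 was also compared between the strains. Of the 53 genes edgeR called 0, as it did of all 15545 genes tested, with 0 of the 53 at an unadjusted p under 0.05. DESeq2 called 0 of the 53, and the median difference of hrde-1 minus WT was -0.11 on the log2 scale, against 0.02 over all genes tested. Without replicate 1 of F2 hrde-1 normoxia it was 0.21.

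The genes lay more often on chromosomes V and X than other sequence-named genes. On V were 18 and on X 15, together 62.3% of the 53, against 32.4% of the 4559 sequence-named genes at the level. Among genes with a class name the share on V or X was 47.2% of the 72 left by the same thresholds and removal, and 30.9% of those at the level. Chromosome II held 10 of the 53, III and IV held 4 each, and I held 2. These shares are a description with no test.

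**Figure D5:**
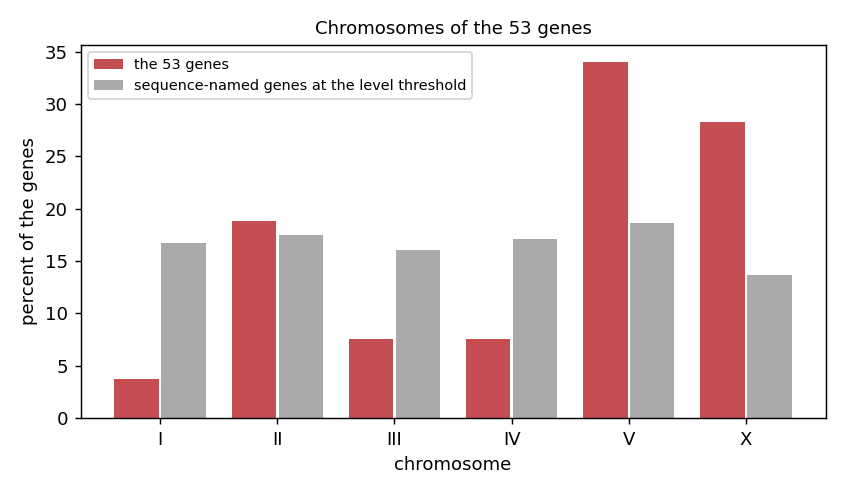
Share of genes on each chromosome (vertical axis, percent) for the 53 genes and for the 4559 sequence-named genes at the level threshold. The red bars stand above the grey ones on V and X and below them on I, III and IV.

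Along the chromosomes the genes were mostly apart from each other. Starts within 20 kb of each other were found only for F22H10.2 and F22H10.6 on X, 9776 bases apart. Their levels in WT hypoxia of P0, F1 and F3 were 2.38 to 13.6 CPM for F22H10.2 and 1.53 to 4.29 for F22H10.6. Next to genes removed for a high level in the mutant were Y39D8A.1, 2862 bases from ZK6.11, ZK228.3, and K08D8.6, 20407 bases from K08D8.4. The median length of exons was 1293 bases, against 1287 for the sequence-named genes at the level, and 51 genes are annotated as protein-coding. The other two, C06A1.4 and Y39B6A.21, are pseudogenes.

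For 10 of the 53 genes the annotated span from start to end, introns included, overlaps that of another coding gene, pseudogene or long RNA. Among them are C05D12.3, W10G11.3 and B0403.3 of the genes called in P0 hrde-1, and T13F3.6, which overlaps T13F3.8 on the opposite strand. W10G11.3 overlaps lgc-45, F32A5.3 overlaps aqp-1, T28D6.3 overlaps tba-7 and Y48E1B.8 overlaps clec-145, all on the opposite strand. Whether their exons share bases was not checked, and the sources used here do not say whether strand was used in counting. Where exons do share bases, reads of both genes may not be told apart, so the values of these 10 genes are uncertain.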

How the data were processed

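Estimated counts per gene were deposited by the authors as 1 table of 32 columns, not normalized. Per the submitters' processing notes, cutadapt 2.5, Bowtie2, featureCounts, RSEM and edgeR were used. The sources used here give neither their roles nor the genome build or the use of strand. Columns were matched to samples by name, with 0 left over. Tests had been planned for counts, so the estimated counts were rounded. Coordinates are 1-based positions of WBcel235, matched by gene ID for 46817 of 46904 genes.

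Levels are CPM over column totals. Log2 fold changes come from edgeR 4.0.16 (R 4.3.3): TMM factors, filterByExpr, quasi-likelihood tests and Benjamini-Hochberg adjustment over all genes tested. A fit had 30 libraries and 15 groups, a second all 32 with the remainder (3 times the deposited column minus F1 and F3), and the pooled model 16 libraries. DESeq2 1.42.0 was an alternative. The scripts were tested on simulated data. All 53 genes passed the filter.

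The genes, lists and tests were chosen with earlier results of these data known. Named were the 12 largest smallest ratios, the 6 highest levels, 4 genes on each side of the threshold, neighbours within 20 kb, and up to 6 called genes per test. Alternatives were other scalings, filters, pseudocounts and thresholds, a replicate block, fits of single groups and leaving out each library. Sequences were not used here.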

Additional observations from a re-analysis of the deposited data

Results flagged for a closer look

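3 differences between generations within hrde-1 passed the test of the difference itself, in edgeR's quasi-likelihood test adjusted over all genes. The hypoxia effect in P0 minus the mean effect in F1 to F3 was 2.74 on the log2 scale for Y39D8A.1. It was 2.28 for Y119D3B.21 and 2.28 for Y38E10A.14. In P0 hrde-1 both hypoxia libraries of each of these genes lay above both normoxia libraries. For all of them the difference stayed above 0 when any hrde-1 library was left out, but the call was lost without replicate 2 of P0 hrde-1 normoxia, at 2.05, 1.81 and 2.01 in that order. The call of Y38E10A.14 was also lost without replicate 2 of P0 hrde-1 hypoxia, at 1.16, and those of Y39D8A.1 and Y119D3B.21 without several other hrde-1 libraries.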

How the results depend on the processing

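The rule gave 82 genes with TMM library sizes, under which all 53 remained, 86 with a fold threshold of 1.5 and 27 with a threshold of 2. Without one WT library it gave 40 to 63. TMM factors were 1.36 and 1.39 in P0 WT normoxia, the highest of all libraries. In hrde-1 P0 the count of 10 became 16 with DESeq2, 0 with the groups alone and 1 to 38 without one library. In hrde-1 F1 it became 22 with the groups alone. In hrde-1 F3 it was 0 to 13 without one library. The pooled count became 7 as an average of contrasts. The count of 3 for P0 minus F1 to F3 became 7 with DESeq2, 0 with the groups alone and 0 to 30 without one library. In F2 WT the deposited columns gave 7. In F2 hypoxia between strains the groups alone gave 12. In F2 normoxia between strains the groups alone gave 0, the deposited columns 9, and leaving out one library 2 to 6. The causes were not tested. Up to 6 called genes per test and direction were followed through the alternatives, and none of their values changed sign. W10G11.3, B0403.3, C45B2.1 and W02H3.1 in hrde-1 P0 were not followed. The median log2 fold change over the 53 genes did in F2, by leaving out one library: in hrde-1 from -0.08 to 0.27, in WT from 0.05 to -0.02, between strains in hypoxia from 0.03 to -0.10 and in normoxia from 0.14 to -0.16, and for hrde-1 minus WT from -0.11 to 0.21. Of the counts under alternatives, 122 stayed within 1.5 times of the count reported and 32 did not. Many of the 122 are counts of 0 that stayed 0, and the number of genes given by the rule is also counted there. For the count in hrde-1 P0, 5 stayed and 6 did not, and for P0 minus F1 to F3 8 stayed and 15 did not. Between strains in F2, 9 stayed and 1 did not in hypoxia, and 8 stayed and 3 did not in normoxia. Over all genes and in both directions, the count of 907 in hrde-1 P0 ran from 49 to 3155 without one library, 1297 in F1 from 4 to 595, 2 in F3 from 1 to 2605, and 265 for P0 minus F1 to F3 from 26 to 2765. Between strains in F2, 999 in hypoxia ran from 204 to 706 and 701 in normoxia from 200 to 1407.

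With the replicate number as a block the count was 9 in hrde-1 P0 and 2 for P0 minus F1 to F3, and the other counts did not change. The replicate differences of the compared groups correlated across genes with r from -0.13 in hrde-1 F2 to 0.44 in hrde-1 F3. The labels give no shared source for same-numbered libraries, and these values do not settle it. In a separate fit of the hrde-1 F2 groups alone, with the number as a block, 125 genes in all were called as labelled and 63 with the numbers crossed, chosen after seeing the data, and 0 of the 53 either way. Counts with the 10 removed genes were also added after seeing the data. With 2 libraries a group, single libraries decide many calls, and genes near 1 CPM rest on few reads.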
